A study of Drosophila melanogaster with 72 samples.

Results

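Males carrying a Y chromosome from Beijing were compared with males carrying a Y chromosome from the Netherlands, in flies (Drosophila melanogaster) whose mitochondria all came from the Netherlands. The members are 24 of the 72 libraries, chosen by their labels alone: 12 with a Beijing Y (haplotypes B04 and B11) and 12 with a Netherlands Y (haplotypes N03 and N07). Each Y haplotype was combined with the 3 mitochondrial haplogroups N01, N02 and N23, which gave 12 combinations of 2 libraries, 1 in each of 2 batches. Every male came from a cross of a mitochondrial replacement female with a Y replacement male, and both kinds of line carried the nuclear background 4361, so the 24 libraries share their autosomes and X chromosome by design. RNA came from pools of 10 whole males aged 3 to 5 days, from separate crosses for each replicate, and was read at the 3′ ends of polyadenylated transcripts (QuantSeq 3′ FWD), so a count is a number of transcript ends and carries no correction for length. The Netherlands Y with Netherlands mitochondria is a pairing of the same geographic origin and the Beijing Y with those mitochondria is not.

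The fly Y chromosome is almost entirely repetitive heterochromatin, carries few genes, most of them needed for sperm, and passes from father to son, while mitochondria pass through the mother. Variation among Y haplotypes is known to shift the expression of many autosomal and X-linked genes, a property called Y regulatory variation. Mitochondrial genomes encode subunits of the respiratory chain, the mitochondrial ribosomal RNAs and the transfer RNAs that translate them, and the rest of the respiratory chain is encoded in the nucleus. As models, the groups are narrow: each population is represented by 2 Y haplotypes, each haplotype is a single replacement line with 6 libraries here, and an exact test of 2 haplotypes against 2 cannot give a 2-sided p below 0.333. The tests below therefore measure the spread between libraries, and population cannot be told apart from the particular lines that stand for it.

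Libraries held 2454024 to 6712459 counts, which limits the precision of low genes most. Total counts did not differ beyond library spread between the Y populations (exact permutation test within haplogroup and batch, p = 0.308). Genes detected ranged from 13436 to 14229, and the library with the fewest was also the one with the fewest counts. The mean was 13800 ± 249 (SD, n = 12) with a Beijing Y and 14000 ± 112 (SD, n = 12) with a Netherlands Y. The exact permutation p was 0.0465, not adjusted for the other library measures tested. The share of reads with multiple alignments averaged 13.6% ± 2.41 (SD, n = 12) with a Beijing Y and 12.3% ± 0.728 (SD, n = 12) with a Netherlands Y (exact permutation p = 0.0614). Of 21 markers of the female reproductive tract and yolk, 1 (Cp15) was abundant enough to be tested. The yolk gene Yp1 stayed between 0.242 and 5.39 CPM (counts scaled to a library of 1e+06), low for a gene that is abundant in adult females. Because whole flies were pooled, fewer cells of a type and less RNA per cell cannot be told apart in any result below.

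There were 3 libraries that stood apart from others of their haplotype or haplogroup, 2 of them picked out by a gene that is high in B11. The N23/B04 replicate 1 library (mitochondria before the slash, Y haplotype after it) had the most counts, 6712459, and the largest share of multiple alignments, 20.2%. Together with the N02/N07 replicate 1 library it was high in the seminal gene Dup99B, at 14500 and 6780 CPM. The Y-linked gene Pp1-Y1 was at 0 CPM in the first, like other B04 libraries, and at 3.78 CPM in the second, the lowest of the N07 values. Its ranges overlapped in N07 (3.78 to 9.87 CPM), B11 (3.86 to 6.7 CPM) and N03 (3.07 to 9.71 CPM). This gene therefore cannot tell those 3 haplotypes apart. The remaining one, N23/N03 replicate 2, held 30.0 CPM of the antisense RNA asRNA:CR44894 while the other N23 libraries held at most 1.78 CPM. Some counts are given below without these libraries, and counts not so given can also change without them.

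Between the populations, no gene passed the test. With haplogroup and batch in the model, 0 of 10936 genes were called at an adjusted p under 0.05 (edgeR quasi-likelihood test with Benjamini-Hochberg adjustment), which is 0% of those tested. The smallest adjusted p was 0.106, shared by 17 genes, and 1279 genes (11.7%) had an unadjusted p under 0.05, of which 638 (5.83%) were higher and 641 (5.86%) lower with a Beijing Y. The count was also 0 with limma-voom, within batch 1 alone (610 genes, 5.58%, at an unadjusted p under 0.05) and within batch 2 alone (916 genes, 8.38%), while DESeq2 called 70 genes. In 0 genes did the 12 Beijing libraries lie entirely above or below the 12 Netherlands libraries. Leaving out N02/N07 replicate 1 raised the count to 103, leaving out N02/B04 replicate 1 raised it to 60, and leaving out N02/B04 replicate 2 raised it to 33. It was 1 without N23/B04 replicate 1 and 1 without N01/N07 replicate 2.

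The 10 genes of smallest p are described with their values, none of them called. They include 2 genes of the eye, 2 transcripts encoded by the mitochondrial genome, a cuticle gene, a sugar-digesting enzyme and a drug transporter. Positions are those of the Ensembl annotation of BDGP6.54, since no source used here names the build the submitters aligned to. The smallest p belonged to CG11905, on 3L at 16928381 to 16935536. Its lowest, median and highest values were 2.39, 4.59 and 5.33 CPM in B04, 2.38, 4.04 and 5.78 CPM in B11, 1.74, 2.57 and 3.31 CPM in N03 and 1.46, 2.26 and 3.62 CPM in N07. Both Beijing haplotypes were high and their ranges still overlapped the Netherlands ranges. The log2 fold change was 0.77 ± 0.15 (SE) (edgeR adjusted p = 0.106), and the sign held in every combination of haplogroup and batch.

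The genes of the eye were higher mainly in B11. ninaA, a chaperone that carries rhodopsin through the secretory pathway, lies on 2L at 877302 to 878270. It had lowest, median and highest values of 9.58, 16.0 and 26.2 CPM in B11 and of 3.29, 4.85 and 20.5 CPM in B04, against 3.31, 4.15 and 5.0 CPM in N03 and 3.19, 3.63 and 11.5 CPM in N07. The B04 maximum was N23/B04 replicate 1 and the N07 maximum was N02/N07 replicate 1. Its population contrast was 1.37 ± 0.29 (log2, SE). Gbeta76C, the beta subunit of the G protein of the eye, lies on 3L at 19687637 to 19689992. It ranged from 53.5 to 96.5 CPM in B11 (median 60.8), from 26 to 95 CPM in B04 (median 34.3), from 24 to 36.5 CPM in N03 (median 31.5) and from 21.3 to 53.1 CPM in N07 (median 29.1), a contrast of 0.76 ± 0.17 (log2, SE).

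Both mitochondrially encoded genes among the 10 had lower values with a Beijing Y. mt:srRNA, the small ribosomal RNA (mitochondrial genome, 14131 to 14916), had medians of 246 CPM in B04 and 166 CPM in B11 against 272 CPM in N03 and 303 CPM in N07. The Beijing mean was 200 ± 45 CPM (SD, n = 12) and the Netherlands mean 290 ± 57.9 CPM (SD, n = 12), a log2 contrast of -0.53 ± 0.11 (SE), with Beijing lower in 6 of 6 combinations of haplogroup and batch. mt:ND3 (mitochondrial genome, 5608 to 5961), which encodes a small complex I protein, averaged 6.59 ± 5.66 CPM (SD, n = 12) against 17.7 ± 13.9 CPM (SD, n = 12). Its contrast was -1.23 ± 0.26 (log2, SE).

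Among these 10 genes, the cuticle gene Cpr72Ec came closest to separating the populations. It lies on 3L at 16365894 to 16367340, and 11 of 12 Beijing libraries were above all 12 Netherlands libraries. The lowest, median and highest values were 25.0, 35.1 and 328 CPM in B04, 31.6, 60.5 and 72.8 CPM in B11, 24.6, 27.5 and 29.4 CPM in N03 and 12.7, 17.4 and 27.8 CPM in N07. The 328 CPM belonged to N23/B04 replicate 1, and the log2 contrast was 1.37 ± 0.29 (SE). Mal-B1, a maltase (2L, 11847226 to 11849169), and Mdr50, an ABC transporter (2R, 14246966 to 14252597), had their highest median in B11. In both genes the B11 range did not overlap that of N03. It overlapped those of B04 and N07 only through N23/B04 replicate 1 (142 CPM of Mal-B1, 13.8 CPM of Mdr50) and N02/N07 replicate 1 (114 and 6.84 CPM). Mal-B1 had a median of 163 CPM in B11 against 36.8 CPM in B04, 34.3 CPM in N03 and 34.9 CPM in N07. Mdr50 had a median of 35.2 CPM in B11 against 3.31, 3.08 and 3.83 CPM in B04, N03 and N07. The remaining members of the 10 were CG31815, with a log2 contrast of 1.24 ± 0.25 (SE), and CG18179, with -1.33 ± 0.29 (SE).

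**Figure D1:**
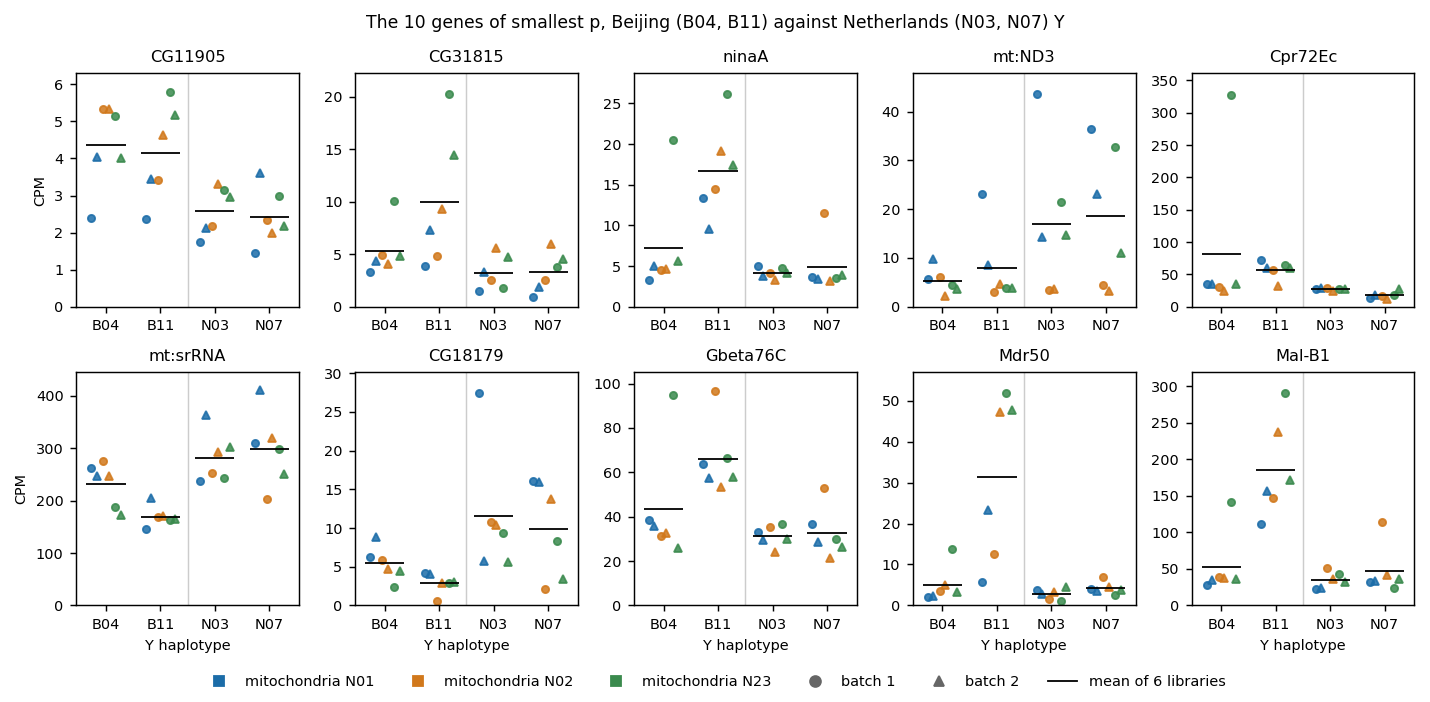
CPM of the 10 genes of smallest p in each of the 24 libraries, by Y haplotype (6 libraries each, black bar: mean), with colour for the mitochondrial haplogroup and shape for the batch; Beijing haplotypes are left of the grey line. In Mdr50, Mal-B1 and ninaA the B11 median is the highest of the 4 haplotypes, and the B11 range overlaps those of B04 and N07 but not that of N03. In Cpr72Ec 1 B04 library reaches 328 CPM.

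Read as gene lists, the population contrast leaned one way in a few of them, with no gene called. Of 31 photoreceptor genes tested, 28 lay above 0 and 20 had an unadjusted p under 0.05 and a higher value with a Beijing Y against 1 lower, with a median log2 fold change of 0.48. All 27 mitochondrially encoded genes tested lay below 0, with 14 at an unadjusted p under 0.05 and a median of -0.34. Among 23 muscle genes 1 lay above 0, 12 had an unadjusted p under 0.05, all lower, and the median was -0.29. Over all tested genes the median was 0.01 and 51.6% lay above 0. The 63 seminal fluid proteins had 16 genes at an unadjusted p under 0.05 and higher and 3 lower (median 0.15), beside 5.83% of all genes higher and 5.86% lower. The 16 became 5 without N23/B11 replicate 2 and 22 without N02/B04 replicate 1, and the 3 ran from 2 to 5. For the 45 digestive enzymes the split was 7 to 6 (3 to 10 and 5 to 11 over single libraries left out), and their median of 0.07 changed sign under upper-quartile scaling, at -0.01. No member of the 14 Stellate genes, the X-linked repeats that the Y chromosome holds silent, or of the 23 Osiris genes was abundant enough to be tested.

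The 4 Y haplotypes did not contribute equally. In a model with 4 Y levels, B11 differed from N03 in 205 genes (1.87%), of which 134 (1.23%) were higher and 71 (0.649%) lower in B11. It differed from N07 in 113 genes (1.03%), of which 73 (0.668%) were higher and 40 (0.366%) lower. B04 was lower than N03 in 4 genes (0.0366%), and it differed from N07 in 3 genes (0.0274%), 1 higher (0.00914%) and 2 lower (0.0183%). The 2 Beijing haplotypes differed from each other in 195 genes (1.78%), 69 (0.631%) higher and 126 (1.15%) lower in B04, and the 2 Netherlands haplotypes in 2 genes (0.0183%). These 6 pairs share libraries and are not independent of each other. Counts that involve B11 moved with single libraries: B11 against N03 ran from 99 (without N23/N03 replicate 1) to 449 (without N23/B04 replicate 1), and B11 against N07 from 37 (without N02/N07 replicate 2) to 281 (without N02/N07 replicate 1). B04 against B11 ran from 79 (without N01/B04 replicate 1) to 535 (without N23/B04 replicate 1).

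**Figure D2:**
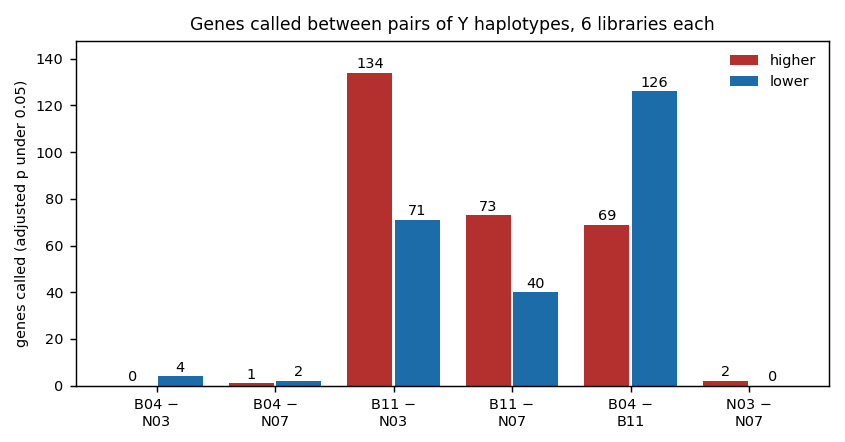
Number of genes called at an adjusted p under 0.05 (edgeR) for each of the 6 pairs of Y haplotypes, 6 libraries each, split into genes higher (red) and lower (blue) in the haplotype named first. The 3 pairs with B11 hold 205, 113 and 195 calls and the 3 pairs without it hold 4, 3 and 2.

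Setting each Beijing haplotype against both Netherlands haplotypes in 18 libraries gave the same asymmetry. For B11, 778 genes were called (7.11%), 441 higher (4.03%) and 337 lower (3.08%), with a median log2 fold change of 0.61 among those higher and -0.66 among those lower. For B04, 2 genes were called (0.0183%), both lower. Setting Beijing haplotypes apart one at a time was part of the design, and the description of B11 that follows was taken up after its count was seen. The B11 count was 724 with limma-voom and 904 with DESeq2, 10 in batch 1 alone (9 libraries) and 893 in batch 2 alone. It was 446 without N23/B11 replicate 1, 458 without N23/B11 replicate 2 and 1299 without N02/N07 replicate 1. In 28 genes (0.256%) every B11 library was above every Netherlands library, and in 10 genes (0.0914%) every B11 library was below.

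Photoreceptor genes had 20 of 31 members called in B11, the largest share among lists with more than 1 gene tested. Phototransduction in the fly runs from rhodopsins through a Gq protein and the phospholipase norpA to the channels trp and trpl, and arrestins end the response. Of 31 members tested, 20 rose in B11 against the Netherlands haplotypes and 0 fell (64.5% called, beside 7.11% of all genes), with a median log2 fold change of 0.78 and -0.02 over all genes. The count higher ran from 18 to 20 over single libraries left out, and the median was 0.68 in batch 1 alone and 0.85 in batch 2 alone. For B04 against the Netherlands haplotypes, 0 of the 31 were called, 24 lay above 0 and the median was 0.19. Set directly against B11, B04 was lower in 11 of the 31 and higher in 0, beside 1.15% of all genes lower and 0.631% higher.

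The rhodopsins differed in size of change. Rh4, an ultraviolet opsin of the inner photoreceptors (3L, 16852527 to 16862517), had lowest, median and highest values of 49.6, 65 and 80.8 CPM in B11, 21.5, 28.2 and 57.9 CPM in B04, and 15.2, 27.8 and 35.1 CPM in the 12 Netherlands libraries. No B11 library overlapped the Netherlands range, and the log2 fold change was 1.25 ± 0.10 (SE; edgeR adjusted p = 2.63e-07; B04 against B11, adjusted p = 0.000753). ninaE, the main opsin of the outer photoreceptors, averaged 573 ± 95.7 CPM in B11 (SD, n = 6) and 272 ± 65.8 CPM in the Netherlands libraries (SD, n = 12), with B04 at 255 CPM. Rh3 (0.78), Rh5 (0.81), Rh6 (0.57) and Rh2, the opsin of the ocelli (0.47), also rose on the log2 scale. Rh7 was not called (0.35, edgeR adjusted p = 0.235).

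Downstream of the opsins the same direction held in the genes called. Arr1, an arrestin (2L, 18078269 to 18081307), had lowest, median and highest values of 443, 677 and 765 CPM in B11, 219, 345 and 381 CPM in B04 and 257, 297 and 401 CPM in the Netherlands libraries. The B11 libraries lay above all others, and the log2 fold change was 1.06 ± 0.10 (SE; edgeR adjusted p = 1.94e-06; B04 against B11, adjusted p = 0.000302). The channel gene trp averaged 133 ± 27.4 CPM in B11 (SD, n = 6) against 66.9 ± 15.3 CPM (SD, n = 12), and Ggamma30A, the gamma subunit of the eye G protein, 822 ± 168 CPM (SD, n = 6) against 412 ± 90.5 CPM (SD, n = 12). Pdh, a retinal dehydrogenase of the pigment cells (log2 1.65), inaD, the scaffold (1.24), trpl (1.16) and Galphaq (0.53) rose as well. inaC, the eye protein kinase C, averaged 12.7 ± 3.92 CPM in B11 (SD, n = 6) against 4.65 ± 2.26 CPM (SD, n = 12). The 11 members not called include ninaD and santa-maria, scavenger receptors that take up carotenoids for the chromophore (-0.43 and -0.04), ninaB, the enzyme that cleaves them (0.31), rdgA (0.17), rdgB (0.15) and the eye pigment transporter w (-0.09).

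Values that could move with the amount of head tissue stand beside these. Of 20 neuronal genes, 1 was called in B11 (5%, beside 7.11% of all genes), 0 were lower, and their median was -0.01. The 1 called was VAChT (0.49 on the log2 scale), not called in 13 of 18 sets with 1 library left out. The summed photoreceptor level was 2980 to 8280 CPM with a Beijing Y and 2680 to 4590 CPM with a Netherlands Y, with haplotype means of 3980 (B04), 5860 (B11), 2960 (N03) and 3110 (N07). The maximum of each population was one of the libraries that stood apart, N23/B04 replicate 1 at 8280 CPM and N02/N07 replicate 1 at 4590 CPM. The part of tissue proportions in the photoreceptor result was not tested.

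**Figure D3:**
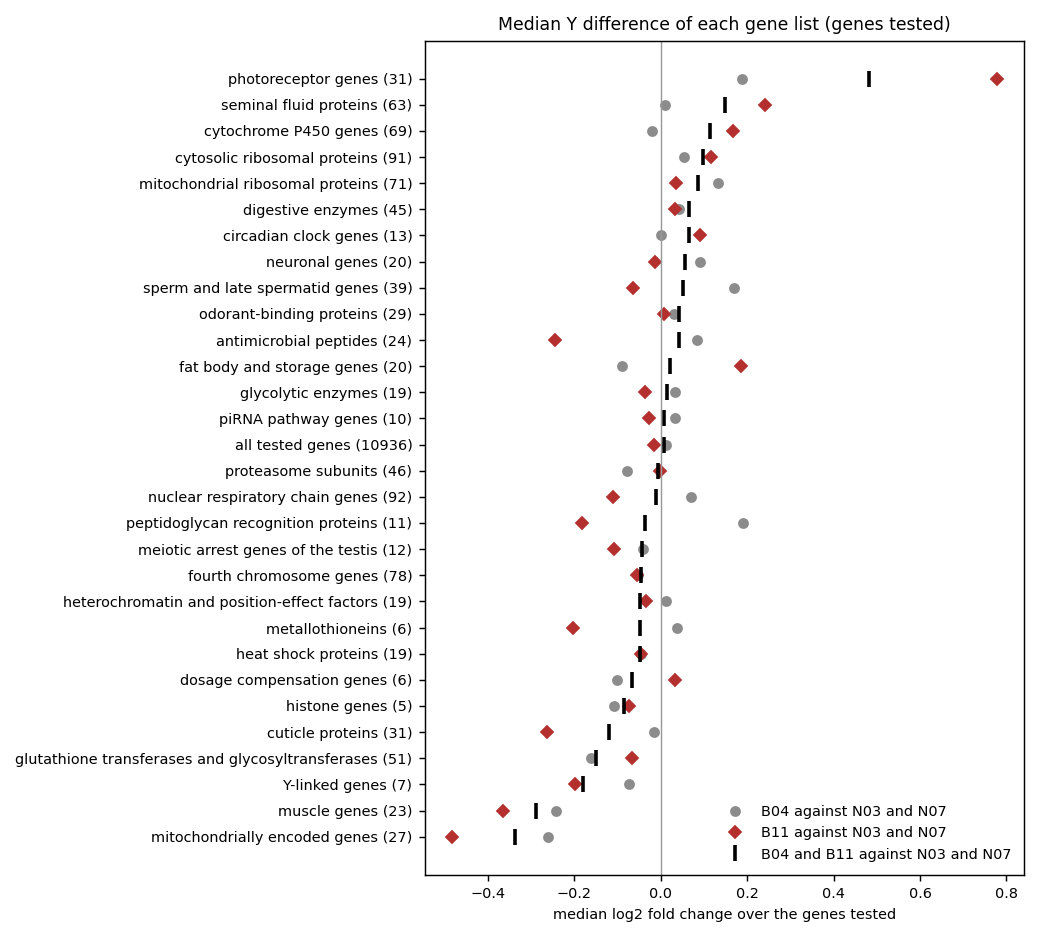
Median log2 fold change over the tested genes of each list (number of genes in brackets) for B04 (grey circles), B11 (red diamonds) and both Beijing haplotypes (black bars), each against both Netherlands haplotypes, ordered by the black bar. Photoreceptor genes have the highest B11 median, 0.78, and mitochondrially encoded genes the lowest, -0.48, with B04 at 0.19 and -0.26; all comparisons use the same Netherlands libraries.

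Transcripts of the mitochondrial genome were lower in B11. Of 27 tested, 7 fell and 0 rose (25.9% called, beside 3.08% of all genes lower), 0 lay above 0 and the median was -0.48. B04 had 0 called, 5 above 0 and a median of -0.26, which was -0.17 in batch 1 alone and -0.40 in batch 2 alone. Set directly against B11, B04 differed in 0 of the 27, beside 1.78% of all genes. mt:srRNA had lowest, median and highest values of 146, 166 and 205 CPM in B11 and 203, 295 and 411 CPM in the Netherlands libraries, with 172, 246 and 275 CPM in B04. B11 was below the Netherlands haplotypes in 6 of 6 combinations of haplogroup and batch, and the log2 fold change was -0.76 ± 0.10 (SE; edgeR adjusted p = 9.29e-05). Against B11, B04 did not pass the test for this gene (adjusted p = 0.0903).

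The other mitochondrially encoded genes called were 3 subunits of respiratory complex I and 3 transfer RNAs. mt:ND1 averaged 686 ± 114 CPM in B11 (SD, n = 6) and 965 ± 283 CPM in the Netherlands libraries (SD, n = 12), a log2 fold change of -0.49 ± 0.13 (SE). mt:ND3 fell by 1.11 and mt:ND4L by 0.35 on the log2 scale, and the transfer RNAs mt:tRNA:Ser-TGA, mt:tRNA:Lys-CTT and mt:tRNA:Ala-TGC fell by 1.10, 0.69 and 0.44. The sizes were unequal, and mt:CoI, a complex IV subunit, stood at -0.07 (edgeR adjusted p = 0.71). The count of 7 became 2 without N23/B11 replicate 1, 3 without N01/B11 replicate 2 and 12 without N02/N07 replicate 1, and it was 1 in a model without the batch term. In batch 1 alone the median was -0.43 and in batch 2 alone -0.44. The summed level of the list was 15400 to 32500 CPM with a Beijing Y and 18600 to 42000 CPM with a Netherlands Y, with means of 24100 in B04, 22900 in B11, 29800 in N03 and 32400 in N07.

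Nuclear genes of the respiratory chain moved little. Of 92 tested in B11, 2 were lower (2.17%, beside 3.08% of all genes lower) and 0 higher, with a median of -0.11. The 2 were ND-49 of complex I (-0.53) and Cyt-c-p (-0.71). Of 71 mitochondrial ribosomal proteins 0 were called (median 0.03), and of 91 cytosolic ribosomal proteins 1 was, the testis-enriched copy RpS19b, which fell by 0.88 on the log2 scale (median of the list 0.12). Without N02/N07 replicate 1, 8 cytosolic ribosomal proteins were called higher, against 0 with it. The 2 respiratory chain genes became 4 without that library, 1 without N01/B11 replicate 2, and 0 without N23/B11 replicate 1 or replicate 2.

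Muscle genes were also lower in B11. Of 23 tested, 7 fell and 0 rose (30.4%, beside 3.08% of all genes lower), 0 lay above 0 and the median was -0.37; B04 had 0 called and a median of -0.24. Act57B, a muscle actin, had lowest, median and highest values of 20.7, 36.4 and 59.1 CPM in B11, 16.6, 43.8 and 83.8 CPM in B04 and 31.7, 74.8 and 137 CPM in the Netherlands libraries. The ranges overlapped, B11 was lower in 6 of 6 combinations of haplogroup and batch, and the log2 fold change was -1.06 ± 0.20 (SE; edgeR adjusted p = 0.00257; B04 against B11, 0.664). The troponin I gene wupA fell by 0.77, the tropomyosin gene Tm2 by 0.68, and the troponin C genes TpnC25D, TpnC41C and TpnC4 by 1.74, 1.13 and 0.62 on the log2 scale. The paramyosin gene Prm fell by 0.38. The count of 7 became 4 without N01/B11 replicate 2, 4 without N23/B11 replicate 2 and 11 without N02/N07 replicate 1, and the median was -0.27 in batch 1 and -0.37 in batch 2. No muscle gene was called between B04 and B11, beside 1.78% of all genes.

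Digestive enzymes changed in both directions. In B11, 9 of 45 rose and 9 fell (40.0% called, beside 7.11% of all genes), and the median was 0.03. Jon99Ciii, a Jonah serine protease of the midgut, had lowest, median and highest values of 380, 728 and 873 CPM in B11, 84.3, 130 and 444 CPM in the Netherlands libraries and 83.9, 120 and 2010 CPM in B04. The highest Netherlands and B04 values were the same pair of libraries that stood apart in Dup99B, and the log2 fold change was 2.25 ± 0.22 (SE; edgeR adjusted p = 2.24e-06). Jon25Bii moved the other way, from a range of 87.5 to 320 CPM in the Netherlands libraries to 41.9 to 86.8 CPM in B11 with no overlap (log2 fold change -1.38 ± 0.24, SE; adjusted p = 0.000898; B04 against B11, 0.0419).

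By kind of enzyme the directions differed. The carbohydrate enzymes called were all higher: the maltases Mal-B1 (log2 2.26) and Mal-A6 (0.40), the amylase Amy-p (0.83) and the mannosidase LManV (0.52), together with the lysozyme LysP (2.31). Of the Jonah proteases called, Jon99Ciii and Jon99Cii (0.80) were higher, and Jon25Bi (-1.31), Jon25Bii, Jon65Ai (-0.95), Jon65Aii (-1.10), Jon65Aiv (-0.42), Jon66Ci (-1.96), Jon99Fi (-1.28) and Jon99Fii (-0.54) were lower. Jon99Ciii and Jon99Cii, and the lysozyme and amylase genes, are near-identical to neighbouring copies, so the split of reads between copies is uncertain. The 9 lower genes became 5 without N01/B11 replicate 1. The median of the list was -0.08 in batch 1 alone and 0.21 in batch 2 alone.

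Detoxification enzymes of the P450 family were mostly higher. In B11, 13 of 69 rose and 2 fell (21.7%, beside 7.11% of all genes), with a median of 0.17 (0.03 in batch 1 alone and 0.21 in batch 2 alone), while B04 had 0 called and a median of -0.02. Cyp4ac1 (2L, 5264001 to 5265899) had lowest, median and highest values of 55, 57.4 and 70.9 CPM in B11, 15.8, 24 and 55.5 CPM in B04 and 19.3, 24.5 and 38.7 CPM in the Netherlands libraries. B11 did not overlap the Netherlands range, and the log2 fold change was 1.14 ± 0.12 (SE; edgeR adjusted p = 5.34e-06; B04 against B11, 0.00963). The neighbouring paralogs Cyp4ac2 (0.94) and Cyp4ac3 (0.61) rose too. Cyp6g1, known for its part in insecticide resistance, had medians of 1780 CPM in B11, 426 CPM in B04 and 443 CPM in the Netherlands libraries, with single libraries at 2220 CPM in B04 and 1810 CPM in the Netherlands set. Its log2 fold change was 1.66 ± 0.22 (SE; edgeR adjusted p = 6.27e-05; B04 against B11, 0.0286). The 2 that fell were Cyp6a16 (-0.52) and Cyp6d2 (-0.69).

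Of 51 glutathione transferases and glycosyltransferases, 3 rose and 6 fell in B11 (17.6%, beside 7.11% of all genes), with a median of -0.07. GstE5 ranged from 24.7 to 34.9 CPM in B11 and from 15.2 to 23.8 CPM in the Netherlands libraries, with no overlap (log2 0.64 ± 0.11, SE; edgeR adjusted p = 0.00102). Members of the GstD cluster were on the other side, with GstD2 at -1.23, GstD3 at -1.74 and GstD10 at -0.79 on the log2 scale. The Mdr50 transporter, described above, rose by 3.04 ± 0.31 (log2, SE; adjusted p = 4.74e-06), and B04 was lower than B11 in it (adjusted p = 0.00213). The 13 P450 genes higher became 7 without N23/B11 replicate 1 and 8 without N02/B11 replicate 2, and the 2 lower ran from 0 to 5. Among the transferases the 3 higher and 6 lower became 5 and 10 without N02/N07 replicate 1, and the lower count became 3 without N23/B11 replicate 2.

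Among 63 seminal fluid proteins tested, 9 rose and 2 fell in B11 (17.5%, beside 7.11% of all genes), with a median of 0.24 and 49 above 0. These are proteins that males pass to females with sperm, and most changes were small. SP, the sex peptide of the accessory gland, had lowest, median and highest values of 2750, 3360 and 3960 CPM in B11 and 2150, 2510 and 2780 CPM in the Netherlands libraries. All 6 combinations of haplogroup and batch had B11 above both Netherlands haplotypes, and the log2 fold change was 0.40 ± 0.09 (SE; edgeR adjusted p = 0.007). Acp36DE (0.32), Acp53C14c (0.49), Sfp77F (0.42), lectin-46Ca (0.48) and lectin-46Cb (0.50) rose by similar amounts on the log2 scale. Of those that fell, Sfp79B stood at -1.06, and Acp65Aa is a cuticle gene that the list's name pattern took in. The 9 higher became 3 without N23/B11 replicate 2 and 15 without N02/N07 replicate 1, and the 2 lower ran from 0 to 4.

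Dup99B, a sex peptide relative made in the ejaculatory duct (3R, 29715068 to 29715377), stood outside that range. All 6 B11 libraries held 5060 to 10200 CPM, with a median of 6680. The other 18 libraries held 4.64 to 120 CPM except for N23/B04 replicate 1 with 14500 CPM and N02/N07 replicate 1 with 6780 CPM. Both exceptions rest on many counts, 73613 and 37668. The log2 fold change of B11 against the Netherlands haplotypes was 6.01 ± 1.10 (SE; edgeR adjusted p = 0.00179), B04 against B11 was not called (adjusted p = 0.299), and the population contrast was 4.84 ± 1.37 (SE; adjusted p = 0.202). Obp99b, an odorant-binding protein gene that lies next to it (3R, 29716254 to 29716896), rose by 1.82 ± 0.26 (log2, SE; adjusted p = 0.000126).

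Other genes of the 12 highest in B11 shared the pattern of Dup99B to different degrees. CG42782 (2R, 12418797 to 12419395) had lowest, median and highest values of 1090, 2000 and 4170 CPM in B11, 238, 401 and 749 CPM in B04 and 229, 416 and 634 CPM in the Netherlands libraries. It did not overlap either, and B04 was lower than B11 (edgeR adjusted p = 0.000302). CG7542, CG7900, CG17944, CG3734, CG14502 and LysP had log2 fold changes of 2.90, 2.43, 2.39, 2.31, 2.27 and 2.31, and in each the highest Netherlands library was N02/N07 replicate 1 and the highest B04 library N23/B04 replicate 1. Srg2 rose by 2.64. CG6295 (2.68; adjusted p = 0.0264) was not called in 6 of 18 sets with 1 library left out.

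Of the 12 lowest in B11, those outside the lists are described here. CG14963 had lowest, median and highest values of 10.9, 12.6 and 27.2 CPM in B11, 16.6, 49.1 and 53 CPM in B04 and 19.1, 48.4 and 76.6 CPM in the Netherlands libraries. Its ranges overlapped, the log2 fold change was -1.73 ± 0.24 (SE; edgeR adjusted p = 0.00011), and B04 was higher than B11 (adjusted p = 0.00708). CG11854 (-2.18), CG8620 (-1.70), MFS1, a membrane transporter (-1.42), and CG18179 (-1.81) also fell. Mov10, a putative RNA helicase (-1.85; adjusted p = 0.0126), was not called in 2 of 18 sets with 1 library left out, and SPH93, a serine protease homolog (-2.72; adjusted p = 0.0424), in 11 of 18. SPH93 stood at -0.43 in batch 1 alone and -5.71 in batch 2 alone.

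Genes of the fat body were higher where they were called. Of 20 tested, 5 rose and 0 fell in B11 (25.0%, beside 7.11% of all genes), with a median of 0.18. The larval storage protein gene Lsp1beta had lowest, median and highest values of 13.1, 48.2 and 330 CPM in B11, 7.59, 10.1 and 620 CPM in B04 and 5.13, 10 and 58.3 CPM in the Netherlands libraries (log2 2.53 ± 0.49, SE; edgeR adjusted p = 0.00293). Its spread within B11 was wide, and 620 and 58.3 CPM were again the libraries apart in Dup99B. The lipase Lip3 (1.75), the lipoprotein precursor apolpp (0.59), and the fatty acid synthesis genes ATPCL (0.56) and FASN1 (0.53) rose. Among 24 antimicrobial peptides tested, Drsl4 (0.64), BomS4 (0.44) and BomS6 rose and 0 fell (12.5%, beside 7.11%), while the median of the list was -0.24. That median was 0.25 in batch 1 alone and -0.81 in batch 2 alone, so its sign differed between batches. BomS6, a short immune peptide, had a median of 2160 CPM in B11 and 622 CPM in the Netherlands libraries. The count of 3 became 1 without N01/B11 replicate 1, N02/B11 replicate 2 or N23/B11 replicate 2.

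Cuticle proteins were mostly lower in B11, with 9 of 31 fallen and 1 risen (32.3%, beside 7.11% of all genes) and a median of -0.26. TwdlT fell by 1.24, TwdlP by 0.87, Cpr62Bc by 1.66 and Ccp84Ab by 1.65 on the log2 scale, with Netherlands means of at most 13.4 CPM. Cpr72Ec was the 1 that rose (1.32 ± 0.17, SE; edgeR adjusted p = 6.23e-05). Of 13 circadian clock genes, Clk, a transcription factor of the clock, rose from a median of 5.04 CPM in the Netherlands libraries to 13.4 CPM in B11 (log2 1.36 ± 0.26, SE; adjusted p = 0.00235; B04 against B11, 0.0137). vri, a target of Clk, fell by 0.50. Since the hour at which flies were frozen is not given in the sources used here, its part was not tested. Of 29 odorant-binding proteins 5 rose and 1 fell (20.7%, beside 7.11% of all genes), and the 5 ran from 1 to 8 over single libraries left out.

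Lists nearest to the known biology of the Y chromosome held few calls in B11, and most are too short to be set apart from the 7.11% of all genes called. Of 19 heterochromatin and position-effect factors 1 fell (5.26%, beside 7.11% of all genes), AGO2 of the RNA interference pathway (-0.65). Among 10 piRNA pathway genes, 6 dosage compensation genes, 12 meiotic arrest genes and 39 sperm and late spermatid genes, 0 were called. Of 78 genes on the fourth chromosome, the small heterochromatin-rich autosome, 2 rose and 4 fell (7.69%, beside 7.11% of all genes), among them CG32006 (1.89) and toy, a Pax6 transcription factor of eye development (-0.98). The heat shock, Turandot, histone and peptidoglycan recognition lists had 0 called, with 19, 4, 5 and 11 genes tested. Without N02/N07 replicate 1, 1 heat shock gene was called higher and 1 lower. The histone, peptidoglycan recognition and dosage compensation lists then had 1 lower each, and the fourth chromosome list had 3 higher and 6 lower.

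Of 51 annotated Y-linked genes 7 were abundant enough to be tested, and the difference called among them belonged to B04. Pp1-Y1, a protein phosphatase gene of the Y chromosome, was at 0 CPM in 4 of 6 B04 libraries and at most 0.646 CPM in the others. Its lowest, median and highest values were 3.86, 5.24 and 6.7 CPM in B11, 3.07, 6.03 and 9.71 CPM in N03 and 3.78, 7.18 and 9.87 CPM in N07, so B04 lay below all other libraries. B04 was lower than N03 (edgeR adjusted p = 1.85e-06), N07 (3.98e-07) and B11 (5.64e-06). With B11 at the level of the Netherlands haplotypes, the population contrast of -1.14 ± 0.45 (log2, SE) was not called (adjusted p = 0.353). A feature listed only by a transcript identifier was also at 0 in 4 of 6 B04 libraries and lower in B04 than in each of the other haplotypes. The other Y-linked genes tested were not called in B11 against the Netherlands haplotypes, kl-2 being nearest (-0.60, adjusted p = 0.093).

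Another 3 genes, all autosomal, stood out in a single haplotype, Sans and dl against each of the others and CG44044 against B11 and N07 only. Sans, the fly relative of a human deafness gene, had lowest, median and highest values of 5.21, 10.5 and 14.2 CPM in N03 and at most 4.35 CPM in any other library. dl, the Dorsal transcription factor, was at 46.9, 59.1 and 97.6 CPM in N03 and between 26.5 and 42.6 CPM elsewhere. CG44044 was at 20, 24.1 and 33.8 CPM in B04, and the other haplotypes lay between 9.08 and 23.3 CPM. B04 was higher than N07 (edgeR adjusted p = 0.00316) and B11 (0.000302). Against N03, whose highest value of 23.3 CPM overlapped B04, it was not called (0.435). Sans and dl account for the 2 genes called between N03 and N07, with dl close to the threshold (edgeR adjusted p = 0.0461). The count of 2 became 1 in 19 of 24 sets with 1 library left out.

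**Figure D4:**
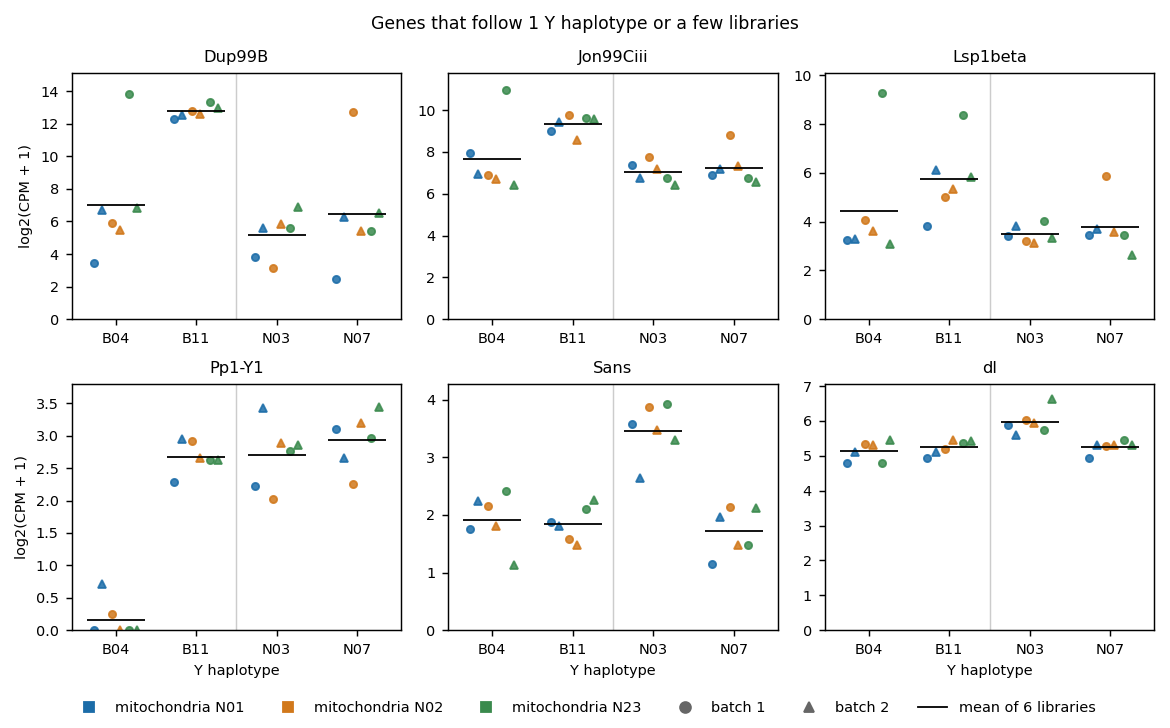
log2(CPM + 1) of 6 genes in the 24 libraries by Y haplotype (black bar: mean of the 6 plotted values), with colour for haplogroup and shape for batch. Pp1-Y1 is near 0 in B04 alone and Sans and dl are high in N03, while Dup99B and Jon99Ciii are high in the B11 libraries and in 1 library each of B04 and N07, as is Lsp1beta except for 1 B11 library at 13.1 CPM.

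Whether the Y population difference depended on the mitochondrial haplogroup was tested as an interaction. No gene was called (0 of 10936; 1081 genes, 9.88%, at an unadjusted p under 0.05; smallest adjusted p 0.466), and DESeq2 called 1. The 5 genes of smallest unadjusted p were CG34289, FIG4, mt:ND3, CG15093 and Cyt-c-p. Cyt-c-p, the cytochrome c of the body, stood at -1.04 in N01, 0.07 in N02 and -1.21 in N23 on the log2 scale, and mt:ND3, described above, at -1.27, 0.15 and -2.30. Batch by Y population gave 0 genes as well (327 genes, 2.99%, at an unadjusted p under 0.05; smallest adjusted p 0.981). Within haplogroups, 0 genes were called in N01 (483 genes, 4.42%, at an unadjusted p under 0.05), 0 in N02 (255 genes, 2.33%) and 279 in N23 (2.55%; 161 higher and 118 lower with a Beijing Y). The N23 count was 0 without N23/B04 replicate 1 and 1011 without N23/B04 replicate 2, and 17 of the 24 single libraries moved it by more than 1.5 times.

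By direction alone, photoreceptor genes lay above 0 in 29, 25 and 26 of 31 members in N01, N02 and N23. Mitochondrially encoded genes lay below 0 in 25, 15 and 19 of 27 members, and muscle genes in 22, 15 and 19 of 23. Over all tested genes the medians were 0.0155, -0.0047 and 0.0165, close to an even split. The 15 of 27 in N02 is near such a split. Digestive enzymes turned over, with 30 and 34 of 45 above 0 in N01 and N23 and 7 in N02. The N02 set holds the Netherlands library apart in Dup99B and the N23 set the Beijing one.

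**Figure D5:**
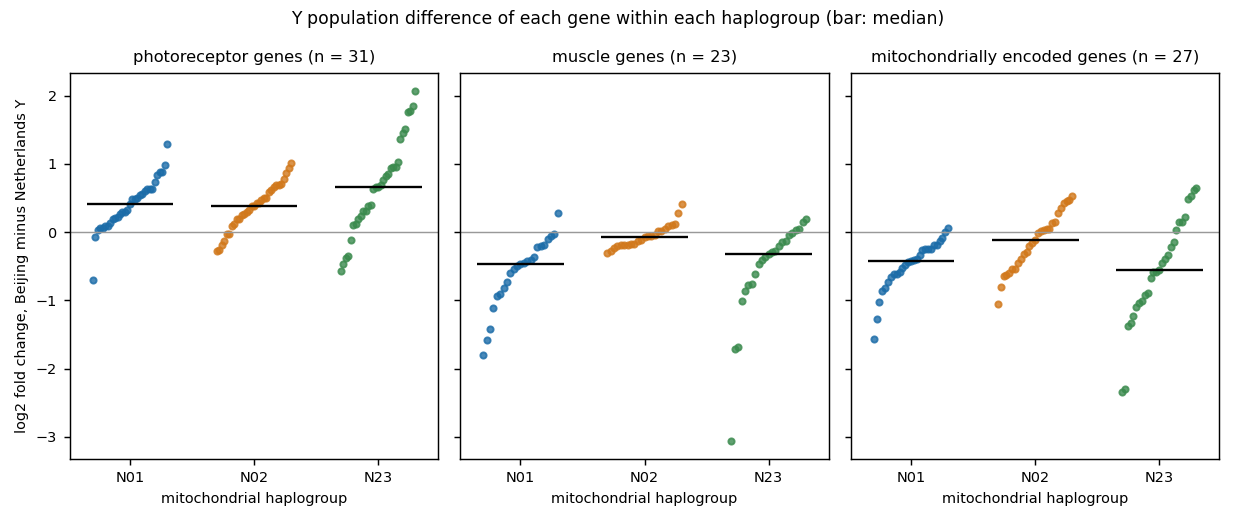
log2 fold change, Beijing minus Netherlands Y, of each tested gene within haplogroups N01, N02 and N23, for gene lists named above each panel with their number of genes (points sorted by value, black bar: median). Photoreceptor genes lie mostly above 0 in all 3 haplogroups (29, 25 and 26 of 31). Muscle genes (22, 15 and 19 of 23) lie mostly below 0. Mitochondrially encoded genes do so in N01 and N23 (25 and 19 of 27), while 15 of 27 in N02 is near an even split.

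The same Y contrast was set beside that in the other 3 mitochondrial haplogroups of the series (B38, B39 and I02, from Beijing and Ithaca). The fit held 48 libraries and 11410 genes. Libraries with the other mitochondria are all of batch 1, while those with Netherlands mitochondria are split between batches 1 and 2. A Y contrast that changed with batch therefore cannot be told apart here from one that changed with mitochondria. No gene differed between the Netherlands mitochondria and the others (0 called; 162 genes, 1.42%, at an unadjusted p under 0.05; smallest adjusted p 1). The 5 smallest unadjusted p belonged to lncRNA:CR43280, Tsp42En, CG11398, CG13947 and CG10710, with differences of 0.98, -0.64, 0.93, -1.14 and -0.98 on the log2 scale. ninaA had a log2 contrast of 1.23 ± 0.28 (SE) in the Netherlands mitochondria and 1.08 ± 0.28 (SE) in the others, a difference of 0.15 ± 0.40 (SE; unadjusted p = 0.702 by edgeR). mt:srRNA stood at -0.54 and -0.39, Cpr72Ec at 1.34 and 1.11, Mal-B1 at 1.31 and 1.03, and Pp1-Y1 at -2.93 and -2.58. These contrasts are means of log2 differences over combinations, so a gene low in 1 haplotype weighs more than in the fit to population given above, where Pp1-Y1 stood at -1.14. In this fit the Y contrast itself was called in 8 genes with Netherlands mitochondria (0.0701%; 5 higher and 3 lower) and in 3 genes with the others (0.0263%; all lower). The widest gap among the 10 genes of smallest p was in CG18179, -1.39 against -0.38, a difference of -1.01 ± 0.45 (SE; unadjusted p = 0.0319, adjusted p = 1).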

How the data were processed

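Whole-male 3′ end RNA-seq libraries (Lexogen QuantSeq 3′ FWD) were used as the raw counts per gene that the authors deposited, with no normalization. Per the submitters' processing notes, reads were handled with STAR 2.6 and HTSeq 0.11.0, with Trimmomatic 0.36, FastQC 0.11.5 and DESeq2 also named; the genome build is not given in the sources used here. Reads with multiple alignments and other unassigned classes were left out of library sizes. Of 17324 features, 17037 were matched to Ensembl release 115 (BDGP6.54) for symbols and positions. Near-identical copies may share or lose reads.

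Counts were scaled by TMM, filtered with filterByExpr and tested with edgeR 4.0.16 (quasi-likelihood, 2-sided, Benjamini-Hochberg adjustment over 10936 genes, R 4.3.3). The model held haplogroup, batch and Y population; limma 3.58.1 and DESeq2 1.42.0 were alternatives. CPM are TMM-scaled. Batch and replicate number coincide in these libraries, so batch is the pairing, and it comes from the labels: over the 12 combinations, the differences between replicate 2 and 1 correlated at 0.0349 to 0.722 (median 0.339). Named genes were the 12 highest and 12 lowest of the called genes whose log2 CPM averaged 2 or more, up to 4 of smallest p per list, and, where fewer than 10 were called, the 10 of smallest p. Other list members were named after their values were seen. The members and the 33 gene lists were chosen with earlier results of these data known. Scripts were tested on simulated counts.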

Additional observations from a re-analysis of the deposited data

Results flagged for a closer look

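In each group of 6 libraries that share a Y haplotype, the highest and lowest values of 32 named genes and 3 library measures were compared with their neighbours. A gap above Dixon's 95% critical value occurred in 40 of 140 groups. The usual rate of about 1 in 20 assumes normally distributed values of genes chosen beforehand. Here CPM were used without transformation and the genes were named from these same libraries, so the 40 cannot be set against that rate. The values are not independent, since 29 of the 40 belong to 2 libraries.

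In Y haplotype B04, the N23/B04 replicate 1 library was far from the other 5 in 16 genes. It was highest in Dup99B (14500 CPM), CG6295 (844), Lsp1beta (620), Cpr72Ec (328), LysP (242), Mal-B1 (142), Gbeta76C (95), CG7542 (83.6), CG3734 (62.6), CG7900 (33.4), CG17944 (27.3), ninaA (20.5), CG14502 (17.6), Mdr50 (13.8) and CG31815 (10.1), all in CPM, and lowest in CG14963 (16.6). It is also the library with 20.2% multiple alignments.

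In Y haplotype N07, the N02/N07 replicate 1 library stood apart in 12 genes and in total counts (6314047). It was highest in Dup99B (6780 CPM), CG6295 (388), LysP (226), Mal-B1 (114), CG7542 (79.7), Lsp1beta (58.3), Srg2 (57), CG3734 (46.2), CG17944 (25.6), CG7900 (23.2), ninaA (11.5) and CG14502 (8.82), all in CPM. The part of a mixed-up or shared sample in these values was not tested.

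The remaining 11 gaps were scattered. They were Lsp1beta in N23/B11 replicate 1 (330 CPM), Gbeta76C in N02/B11 replicate 1 (96.5 CPM), mt:ND3 in N01/B11 replicate 1 (23.2 CPM), CG18179 in N02/B11 replicate 1 (lowest, 0.568 CPM) and in N01/N03 replicate 1 (27.4 CPM), and CG7542 in N02/N03 replicate 2 (lowest, 4.76 CPM). SPH93 stood apart in N23/B04 replicate 2 (79.1 CPM) and in N23/N07 replicate 2 (52.5 CPM), Cpr72Ec in N23/N07 replicate 2 (27.8 CPM) and Acp65Aa in N01/N07 replicate 2 (14 CPM). Among library measures, N01/B11 replicate 2 had the lowest share of multiple alignments in B11 (12.3%).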

How the results depend on the processing

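The population count of 0 genes stayed 0 under size factors of DESeq2, upper-quartile scaling, limma-voom with or without an estimated correlation, a higher count filter, no replicate block, either batch alone, and without Y N03, haplogroup N01 or haplogroup N23. It was 70 with DESeq2, 33 with no filter, 28 with 4 Y haplotypes in the model, 778 without Y B04, 2 without Y B11, 2 without Y N07, 188 without haplogroup N02, 5 when fitted on all 72 libraries, 1 without the library over 20% multiple alignments and 83 without the libraries apart in Dup99B. Those 2 libraries were chosen after a gene high in B11 had been seen, so leaving them out widens B11 differences by construction. Over single libraries left out it ran from 0 to 103.

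Among pairs, leaving out 1 library gave 99 to 449 for B11 against N03 and 37 to 281 for B11 against N07. It gave 79 to 535 for B04 against B11. For N03 against N07 it gave 1 to 2, with 1 in 19 of 24 sets. Without both libraries in doubt (over 20% multiple alignments, and high asRNA:CR44894) these counts were 319, 235 and 481 for the first 3, with no replicate block 103, 47 and 89, and without the libraries apart in Dup99B 601, 697 and 699; N03 against N07 was 1 with limma-voom and 1 with no replicate block. B11 against both Netherlands haplotypes was 361 with no replicate block, 10 in batch 1 alone, 1299 without the libraries apart in Dup99B, and 446 to 1299 over single libraries left out. B04 was 4 with DESeq2 and 0 in batch 1 alone.

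Within N23 the 279 calls became 0 without both libraries in doubt, 6 with no replicate block and 5 without the libraries apart in Dup99B, and 0 to 1011 over single libraries left out. The range in N01 was 0 to 1. DESeq2 called 1 gene for haplogroup by Y population. The causes of these shifts were not tested. For 50 named genes of the population contrast, 2126 of 2350 alternative values kept their side of the threshold, 224 passed it and 0 reversed. For 78 genes named for B11, 1651 of 1872 did, 221 no longer passed and 0 reversed. Genes of a few CPM are limited by depth, and a level under 3 counts is at the floor.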

Other observations

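Across the 48 libraries with a Beijing or Netherlands Y, Dup99B was at 4810 CPM or more in 15 libraries and at 279 CPM or less in the others. The gap does not hold over the whole series, since 5 libraries with a Zimbabwe Y lay inside it, at 1280, 2230, 3240, 3620 and 3710 CPM. With Netherlands mitochondria, a level over 1000 CPM was found in 6 of 6 B11 libraries, 1 of 6 B04, 0 of 6 N03 and 1 of 6 N07. With the other mitochondria it was found in 4 of 6 B11 libraries, 2 of 6 B04, 0 of 6 N03 and 1 of 6 N07. The B11 range there was 8.68 to 12000 CPM with a median of 6130. These levels are scaled over a wider set of libraries than those in the report, and the gene was looked at after its values were seen. No explanation was tested.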
